A study of Mus musculus with 9 samples.

Results

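The 10 genes described here are the switch that takes a cell out of G1: the D cyclin genes Ccnd1, Ccnd2 and Ccnd3, the kinase genes Cdk4 and Cdk6, the CDK inhibitor genes Cdkn1a, Cdkn1b, Cdkn2a and Cdkn2b, and the retinoblastoma gene Rb1. They were chosen by gene symbol, with earlier results of these data known. Of the 10, 8 had values among the 22469 genes of the table, and all 8 passed the filter on low values, as did 17579 genes in all; Cdkn2a and Cdkn2b were not analysed here. Values came from total RNA of 4T1 cells, a mouse mammary tumour line, depleted of ribosomal RNA before sequencing. The groups were KO-c19 and KO-c43, both Nat10 knockout lines, and WT, 4T1 cells without the knockout, with 3 biological replicates of each and 9 libraries in all. Nat10 encodes an acetyltransferase of RNA cytidines. All cells were untreated and were collected 48 h after seeding at 300000 cells per 6 cm dish. The labels do not state how the knockout was made or whether each line is a single clone, and replicates are cultures of the same line, so the p-values measure the spread between cultures.

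D cyclins are made in response to growth factors and activate CDK4 and CDK6, which phosphorylate the retinoblastoma protein. Unphosphorylated retinoblastoma protein holds E2F transcription factors in check, and its phosphorylation lets genes of S phase be transcribed. Inhibitors of the INK4 family bind CDK4 and CDK6 themselves, whereas p21 and p27, the CIP/KIP products of Cdkn1a and Cdkn1b, bind cyclin-CDK complexes. In mammary epithelium, cyclin D1 is the D cyclin best known for its part in gland growth and in tumours. Transcript levels do not report phosphorylation or protein turnover, by which much of this switch is controlled.

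The promoters of both CIP/KIP genes are shown because these inhibitor genes rose in both lines, and that of Cdk4 because this gene moved least in KO-c19. Each line holds the 250 bases before the start site in RefSeq, build GRCm38.p6, plus strand, with capitals marking matches to the motifs searched on both strands: GGGCGG (a GC box), CACGTG (an E box), CCAAT, TTTNGCGC (an E2F site) and TGACGT (part of a cyclic AMP response element). For Cdkn1a the downstream of its 2 RefSeq start sites is shown, chosen after the search because it held matches; the window of the other start site held none of the motifs.
Cdkn1a chr17:29093519-29093768: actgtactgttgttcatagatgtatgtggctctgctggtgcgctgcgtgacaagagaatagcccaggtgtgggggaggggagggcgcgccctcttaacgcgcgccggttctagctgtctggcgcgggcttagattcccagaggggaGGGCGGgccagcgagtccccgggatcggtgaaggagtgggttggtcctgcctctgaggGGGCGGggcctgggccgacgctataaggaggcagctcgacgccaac
Cdkn1b chr6:134920151-134920400: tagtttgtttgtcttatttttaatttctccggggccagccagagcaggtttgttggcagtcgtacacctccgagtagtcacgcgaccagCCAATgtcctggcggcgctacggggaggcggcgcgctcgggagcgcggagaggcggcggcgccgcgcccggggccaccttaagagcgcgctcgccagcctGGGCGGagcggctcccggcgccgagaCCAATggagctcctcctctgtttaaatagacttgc
Cdk4 chr10:127063285-127063534: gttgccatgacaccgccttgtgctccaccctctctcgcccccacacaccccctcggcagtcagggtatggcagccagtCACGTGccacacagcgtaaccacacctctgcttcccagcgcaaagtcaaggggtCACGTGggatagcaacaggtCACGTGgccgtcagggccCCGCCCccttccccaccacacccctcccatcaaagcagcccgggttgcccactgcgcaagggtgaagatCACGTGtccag
The Cdkn1a window shown held 2 matches to GGGCGG and none to the other motifs, Cdkn1b held 1 match to GGGCGG and 2 to CCAAT, and Cdk4 held 4 matches to CACGTG and 1 to GGGCGG, with no overlap between matches. Among 32851 promoter windows of the same length, GGGCGG was in 32.7%, CACGTG in 6.02%, CCAAT in 33.9%, TTTNGCGC in 1.13% and TGACGT in 6.47%. A match is a run of letters and not a shown binding site. Of the 8 genes with values, 5 had a promoter entry in that table.

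Nat10, the targeted gene, checked the labels of knockout against WT. It had 1748, 1761 and 1710.0 normalized counts in KO-c19, 1724, 1748 and 1766 in KO-c43, against 6432, 6501 and 6428 in WT. Libraries of KO-c19 and KO-c43 overlapped for Nat10, so it cannot check which line a library came from. Its mean in KO-c19 was 26.95% of WT and its mean in KO-c43 was 27.05%, with no knockout library overlapping WT. In exact two-sided permutation tests of 3 libraries against 3, each line gave p = 0.1, and the 20 divisions allow no smaller value. Normalized totals ran from 45628576 to 50123222 per library. From the low values, 1 read was estimated to stand for 0.8245 to 1.1185 normalized counts. Of 7 markers of mammary epithelial cells, 6 had values. Krt8 and Krt18, keratins of luminal cells, were abundant in every group and rose in both lines, with means of 31153 (KO-c19), 28918 (KO-c43) and 25607 (WT) normalized counts for Krt8. The others fell: Krt14 had means of 22.2 (KO-c19), 15.1 (KO-c43) and 4960 (WT), Epcam of 963 (KO-c19), 123 (KO-c43) and 6422 (WT), Cdh1 of 5797 (KO-c19), 3731 (KO-c43) and 26262 (WT), and Krt19 of 2924 (KO-c19), 2096 (KO-c43) and 5012 (WT). The summed level of these 6 markers ran from 73560.2 to 79695 in KO-c19, 67628 to 69893 in KO-c43 and 95120.0 to 99753 in WT. Of 11 markers of other cell types, 5 had values, and their sum ran from 1095 to 1229 in KO-c19, 597 to 718 in KO-c43 and 453 to 513 in WT. Most of it was Pdgfra, a receptor of fibroblasts, with means of 866 (KO-c19), 450 (KO-c43) and 273 (WT). Cd68, of macrophages, had 280 (KO-c19), 192 (KO-c43) and 182 (WT). Col1a1, Pecam1 and Ptprc, of fibroblasts, endothelium and leukocytes, stayed under a mean of 29 in every group. Col1a1 went the other way from Pdgfra, with means of 2.72 (KO-c19), 6.53 (KO-c43) and 28.5 (WT). Pecam1 averaged 12.4 (KO-c19), 2.25 (KO-c43) and 7.01 (WT), and Ptprc 9.09 (KO-c19), 0.951 (KO-c43) and 1.04 (WT). The part of these shifts in the results below was not tested.

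Changes are differences of mean log2(normalized count + 1) with standard errors (SE) from limma, and a gene rose or fell when its Benjamini-Hochberg adjusted p over all genes tested was under 0.05. KO-c19 against WT asks which of these transcripts differ in that line: 6 of the 8 rose, 1 fell and 1 did not pass. Across all genes tested 32.8% rose and 34.9% fell, 67.6% together, so most genes of the table were called. In KO-c43 against WT 5 rose, 2 fell and 1 did not pass, where 32.5% of all genes rose and 33.1% fell, 65.6% together. At least a 2-fold change was reached by 2 of the 8 in KO-c19 (15.5% of all genes) and by 1 in KO-c43 (14.5%). The median log2 change of the 8 was 0.22 in KO-c19 and 0.27 in KO-c43, against 0.0032 and 0.0070 for all genes tested. Libraries of a line and WT did not overlap for 7 genes in KO-c19 (70.3% of all genes) and for 8 in KO-c43 (70.6%). The comparisons share the WT libraries. In bulk RNA, fewer cells with a transcript and less of it per cell cannot be told apart.

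**Figure D1:**
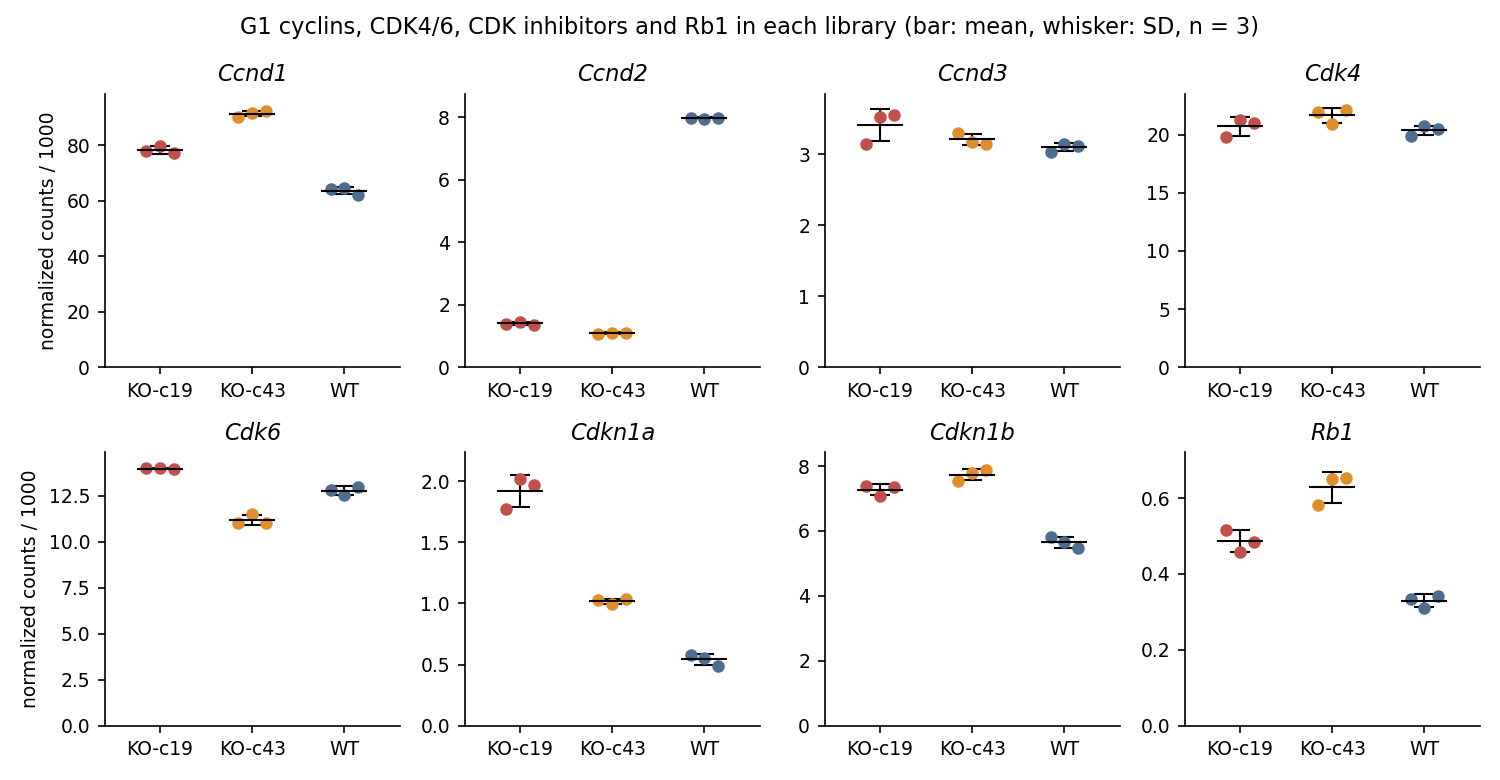
Normalized counts (divided by 1000, axes from 0) of the 8 genes in each library of KO-c19, KO-c43 and WT; points are libraries, the long bar is the mean and the whisker the SD (n = 3). Ccnd2 averages 1397 and 1083 in the lines and 7973 in WT, and Cdkn1a is highest in KO-c19, then KO-c43, then WT.

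Among the D cyclins, Ccnd2 and Ccnd1 moved in opposite directions. Ccnd2 had 1382, 1458 and 1352 normalized counts in KO-c19, 1049, 1097 and 1103 in KO-c43, against 7982, 7953 and 7983 in WT. All knockout libraries lay far below WT, and those of KO-c43 lay below those of KO-c19. The log2 change was −2.51 ± 0.042 (SE) in KO-c19 (5.71-fold lower, limma adjusted p = 1.96e-18) and −2.88 ± 0.042 in KO-c43 (7.36-fold lower, limma adjusted p = 3.37e-19). In absolute size these changes stood at the 96.4th and 97.0th percentiles of all genes tested. The difference between the lines was −0.37 ± 0.042 for KO-c43 against KO-c19 (limma adjusted p = 1.22e-06). Ccnd2 (ENSMUSG00000000184) lies on the minus strand of chromosome 6, 127102125 to 127129157 as the deposited coordinates give it, and no other gene of the table overlaps it.

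Ccnd1 was the most abundant of the 8 per length in every library. It had 77988, 79938 and 77157 normalized counts in KO-c19, 90404, 91644 and 92444 in KO-c43, against 64165, 64725 and 62213 in WT. The 3 groups did not overlap, in the order KO-c43, KO-c19, WT from high to low. The gene rose by 0.30 ± 0.031 on the log2 scale in KO-c19 (1.23-fold, limma adjusted p = 1.5e-07) and by 0.52 ± 0.031 in KO-c43 (1.44-fold, limma adjusted p = 8.19e-11). KO-c43 exceeded KO-c19 by 0.22 ± 0.031 (limma adjusted p = 1.53e-05). LTO1, on the opposite strand at the same place (chromosome 7, 144483668 to 144493663 for Ccnd1), had means of only 531 (KO-c19), 548 (KO-c43) and 472 (WT).

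Ccnd3, for the third D cyclin, hardly moved. It had 3147, 3530.3 and 3557 normalized counts in KO-c19, 3298, 3173 and 3149 in KO-c43, against 3030.4, 3141 and 3119 in WT. The lines overlapped each other, and their lowest library lay just above the highest WT library. The change of 0.14 ± 0.046 passed in KO-c19 (limma adjusted p = 0.0142), and that of 0.05 ± 0.046 did not in KO-c43 (limma adjusted p = 0.355; 95% limits −0.05 to 0.15). KO-c43 against KO-c19 differed by −0.09 ± 0.046 (limma adjusted p = 0.151), a difference that passed after scaling by totals (0.0225) or quantiles (0.0487) and without KO-c19 replicate 1 (0.003). The KO-c19 call ended without KO-c19 replicate 2 or 3 (limma adjusted p = 0.0648 and 0.0783), without WT replicate 1 (0.0539) and without the intensity trend and robust step (0.0547). Bysl, for a ribosome assembly factor, overlaps Ccnd3 on the opposite strand and had means of 1701 (KO-c19), 1748 (KO-c43) and 4149 (WT); whether reads were counted by strand is not given in the sources used here.

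Levels of different genes are set side by side only as normalized counts per kb of merged exons (GENCODE M21 lengths). On that scale Ccnd1 averaged 16641 ± 303 in KO-c19, 19430.3 ± 218 in KO-c43 and 13527 ± 280 in WT (SD, n = 3). Ccnd2 averaged 148 ± 5.83 (KO-c19), 115 ± 3.17 (KO-c43) and 847 ± 1.84 (WT), and Ccnd3 averaged 389 ± 26.1 (KO-c19), 365 ± 9.09 (KO-c43) and 353 ± 6.68 (WT). Ccnd2 thus stood below Ccnd3 in both lines and above it in WT, with no overlap of libraries. Its share of the D cyclin level per kb was 0.864% ± 0.018 in KO-c19, 0.578% ± 0.0103 in KO-c43 and 5.75% ± 0.119 in WT, while Ccnd1 held 96.9% ± 0.147, 97.6% ± 0.0554 and 91.8% ± 0.173. The summed D cyclin level per kb was 117% of WT in KO-c19 and 135% in KO-c43.

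**Figure D2:**
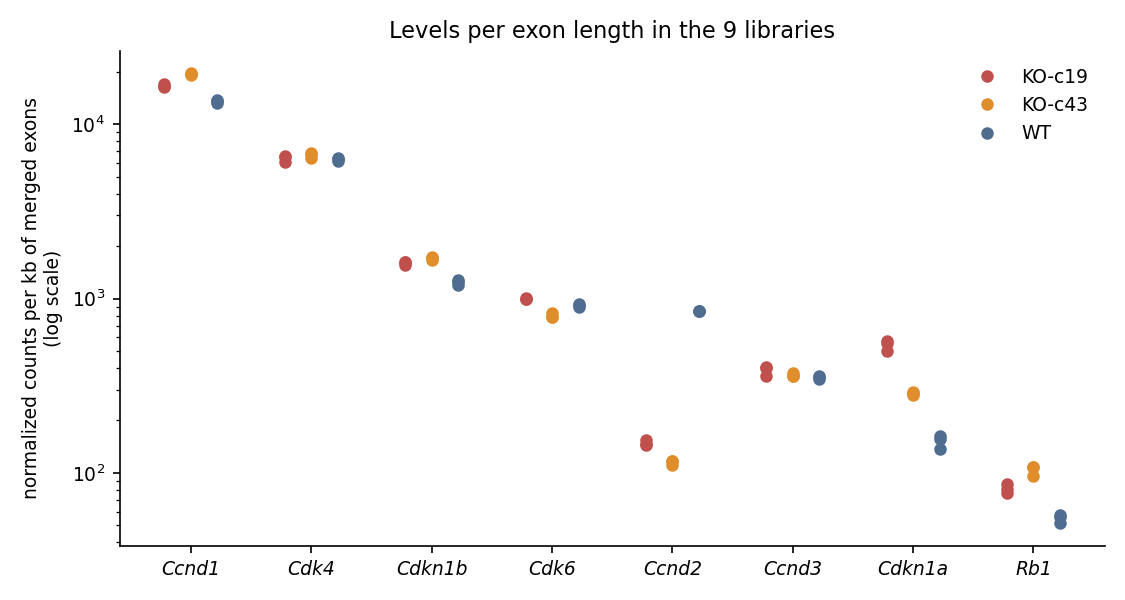
Normalized counts per kb of merged exons (log scale) for the 8 genes, with 3 libraries each of KO-c19, KO-c43 and WT as points. Ccnd1 and Cdk4 lead in every group, Rb1 is lowest, and Ccnd2 lies between 115 and 148 on average in the lines and at 847 in WT.

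From high to low, the mean levels per kb in KO-c19 ran Ccnd1, Cdk4, Cdkn1b, Cdk6, Cdkn1a, Ccnd3, Ccnd2 and Rb1, and in KO-c43 Ccnd3 came before Cdkn1a. In WT the order was Ccnd1, Cdk4, Cdkn1b, Cdk6, Ccnd2, Ccnd3, Cdkn1a and Rb1. Libraries of neighbouring genes did not overlap in any group. The narrowest gaps were 1.10-fold between Ccnd2 and Rb1 in KO-c43 and 1.08-fold between Cdk6 and Ccnd2 in WT. With the longest transcript as the length, the order in the lines was the same, and in WT Ccnd2 (1259 per kb) came before Cdkn1b (1240) and Cdk6 (1109).

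The kinases moved little. Cdk4 had 19795, 21276 and 21028 normalized counts in KO-c19, 21901, 20948 and 22133 in KO-c43, against 19887, 20706 and 20463 in WT. KO-c19 overlapped WT, and the lowest KO-c43 library lay just above the highest WT library. The KO-c19 value of 0.02 ± 0.037 missed the threshold (limma adjusted p = 0.585; 95% limits −0.05 to 0.10), though it was 0.12 after scaling by totals and 0.17 after quantile scaling (limma adjusted p = 0.00814 and 0.000649). The KO-c43 change of 0.09 ± 0.037 passed narrowly (limma adjusted p = 0.0417). It no longer passed under 8 of the 20 alternatives, among them TMM scaling (0.0905), the replicate block (0.0518) and leaving out KO-c43 replicate 1 or 3 (0.111 and 0.132) or any WT replicate (0.157, 0.0541 and 0.0807). Between the lines Cdk4 differed by 0.07 ± 0.037 (limma adjusted p = 0.178). Tspan31, on the opposite strand at this place, had means of 1957 (KO-c19), 1989 (KO-c43) and 1894 (WT).

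Cdk6 went opposite ways in the lines. It had 14002, 14022 and 13948 normalized counts in KO-c19, 11021, 11494 and 11042 in KO-c43, against 12852, 12531 and 12976 in WT. Every KO-c19 library lay above WT and every KO-c43 library below it. The gene rose by 0.13 ± 0.033 in KO-c19 (1.09-fold, limma adjusted p = 0.00219) and fell in KO-c43 (log2 change −0.19 ± 0.033, 1.14-fold lower, limma adjusted p = 5.71e-05). The difference between the lines, −0.32 ± 0.033, was tested in itself (limma adjusted p = 3.62e-07). Per kb, Cdk4 made up 86.4% ± 0.462 of the Cdk4 and Cdk6 level in KO-c19, 89.3% ± 0.509 in KO-c43 and 87.3% ± 0.374 in WT, and the summed level was 103% and 104% of WT. The noncoding genes Gm42435 and Gm17590 overlap Cdk6 on the opposite strand. Their means were 38.6 and 37.9 (KO-c19), 36.8 and 24.2 (KO-c43), and 27.6 and 26.4 (WT).

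Both CIP/KIP inhibitor genes rose in both lines, Cdkn1a by the larger fold. Cdkn1a, for p21, a target of p53 and an inhibitor of cyclin E complexes, had 1772, 2020.4 and 1972 normalized counts in KO-c19, 1027, 994 and 1032 in KO-c43, against 581, 553 and 489.8 in WT. The groups did not overlap, and KO-c19 lay well above KO-c43. The log2 change was 1.83 ± 0.065 in KO-c19 (3.55-fold, limma adjusted p = 4.93e-14) and 0.91 ± 0.065 in KO-c43 (1.88-fold, limma adjusted p = 7.44e-10), at the 93.7th and 83.1st percentiles of absolute change. The line difference of −0.91 ± 0.065 (limma adjusted p = 3.13e-09) was the largest among the 8 genes. A gene on the opposite strand, 1700023B13Rik, had means of 41.1 (KO-c19), 16.1 (KO-c43) and 9.26 (WT), so its level moved with Cdkn1a at a small part of its counts.

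Cdkn1b, for p27, which holds cyclin E and CDK2 inactive in resting cells, was the more abundant inhibitor. It had 7393, 7068 and 7359 normalized counts in KO-c19, 7546, 7781 and 7880.5 in KO-c43, against 5827, 5644 and 5460.3 in WT. Both lines lay above WT without overlap. The gene rose by 0.37 ± 0.037 in KO-c19 (1.29-fold, limma adjusted p = 9.68e-08) and by 0.46 ± 0.037 in KO-c43 (1.37-fold, limma adjusted p = 5.57e-09). The line difference of 0.09 ± 0.037 missed the threshold (limma adjusted p = 0.0691), although it passed without KO-c19 replicate 1 (0.0264). Per kb, Cdkn1a made up 25.3% ± 1.67 of the level of the pair in KO-c19, 14.4% ± 0.397 in KO-c43 and 10.9% ± 0.544 in WT (SD, n = 3), and the summed level was 154% and 143% of WT.

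Rb1, whose product is the main target of CDK4 and CDK6, was the least abundant of the 8 and rose in both lines. It had 517, 459 and 486 normalized counts in KO-c19, 581, 651 and 653 in KO-c43, against 334, 309.7 and 343 in WT. The 3 groups did not overlap, with KO-c43 highest. The log2 change was 0.56 ± 0.073 in KO-c19 (1.48-fold, limma adjusted p = 2.13e-06) and 0.93 ± 0.073 in KO-c43 (1.91-fold, limma adjusted p = 3.26e-09), and the lines differed by 0.37 ± 0.073 (limma adjusted p = 0.000589). Per kb Rb1 averaged 81.0 ± 4.81 (KO-c19), 104 ± 6.83 (KO-c43) and 54.7 ± 2.88 (WT). Rcbtb2 and Lpar6 overlap Rb1 on the opposite strand in the table, with means of 3068 (KO-c19), 2665 (KO-c43) and 1476 (WT) for Rcbtb2 and 566 (KO-c19), 605 (KO-c43) and 645 (WT) for Lpar6. The noncoding gene Gm17233, on the same strand as Rb1, had means of 4.92 (KO-c19), 1.65 (KO-c43) and 0.675 (WT). The part of their reads in the Rb1 values was not tested.

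**Figure D3:**
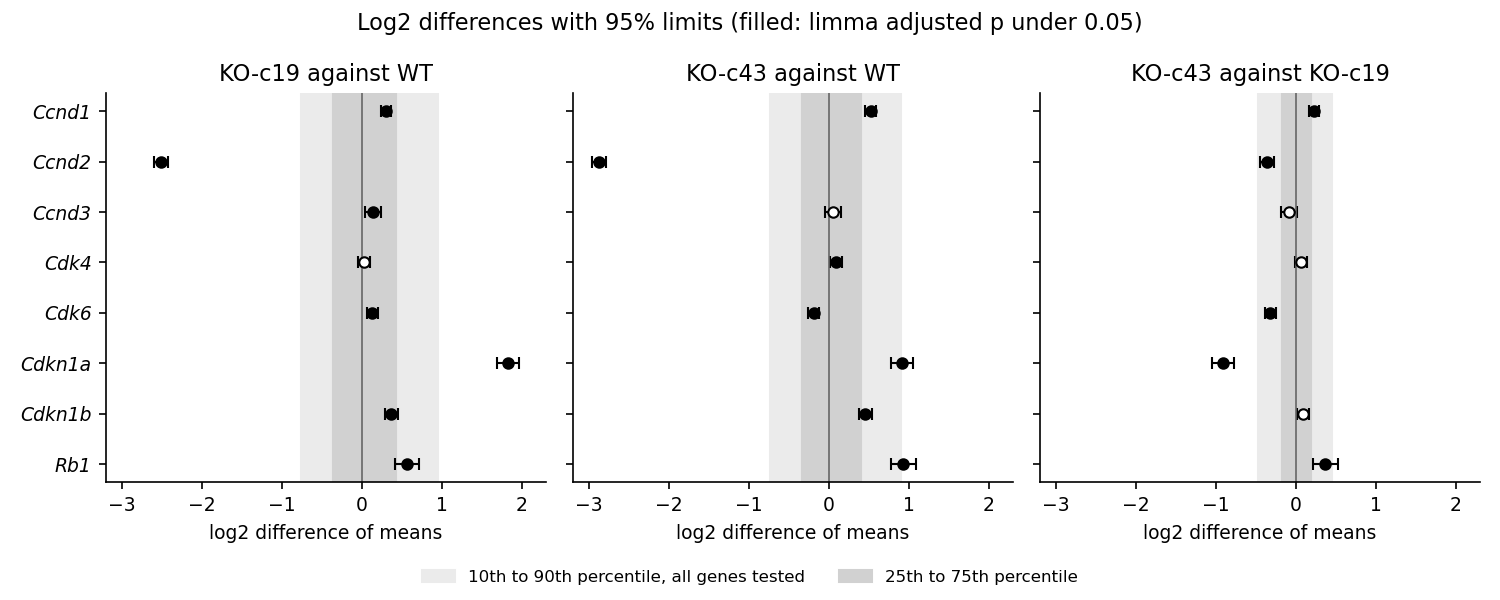
Log2 differences of the 8 genes with 95% limits from limma, for each line over WT and for KO-c43 over KO-c19; filled points passed an adjusted p under 0.05, and the grey bands span the 10th to 90th and 25th to 75th percentiles of all genes tested. Ccnd2 lies far below the bands in both comparisons with WT, and Cdkn1a differs most between the lines.

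KO-c43 against KO-c19 tests whether the lines differ. Of the 8 genes, Ccnd1 and Rb1 were higher in KO-c43, Ccnd2, Cdk6 and Cdkn1a were lower, and 3 did not pass, where 39.4% of all genes were called, 21.1% higher and 18.3% lower. Over all genes these were 3717 higher and 3211 lower, and scaling by totals gave 2955 higher and 4314 lower. Libraries of the lines did not overlap for 6 of the 8 genes, against 47.9% of all genes. The closest profile to each gene was sought as the root mean square difference of log2 values, centred on WT, over the 9 libraries among 10550 protein-coding genes. Ccnd2 was closest to Il18rap, at 0.10, with no gene nearer, and Cdkn1a to Maml3 at 0.092, the single gene within 0.1. Rb1 was closest to Zkscan8 (0.044), Ccnd1 to Crybg1 (0.030), Cdkn1b to Bcl2l2 (0.034), Cdk6 to Tsc22d1 (0.042), Ccnd3 to Rnf41 (0.017) and Cdk4 to Tmem250-ps (0.020). Between 20 and 791 genes lay within 0.1 of each of these last 6. Among the 8 themselves the closest pair was Ccnd1 and Cdkn1b (0.064).

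Other genes of the pathway came from lists, read by counts. As shares of all genes tested, 32.8% rose and 34.9% fell in KO-c19, and 32.5% and 33.1% in KO-c43. In the group of later G1 and S phase cyclins, CDKs and their activators, KO-c19 had 6 of 8 genes lower and none higher (median log2 change −0.28), and KO-c43 had 4 lower and 1 higher (median −0.11). Ccne1, for a cyclin that drives CDK2, had means of 548 (KO-c19), 545 (KO-c43) and 771 (WT) normalized counts. It fell 1.41-fold in both lines (limma adjusted p = 5.45e-06 and 4.78e-06). Ccne2, for the other cyclin E and named after its values were seen, averaged 1417 (KO-c19), 1704 (KO-c43) and 1679 (WT). Its log2 change was −0.25 in KO-c19 (limma adjusted p = 0.000984) and 0.02 in KO-c43 (0.771). Cdc25a, for a phosphatase that activates CDK2, fell 1.24-fold (KO-c19) and 1.19-fold (KO-c43), and Mnat1, for an assembly factor of the CDK-activating kinase, 1.27-fold in both. Cdk7, the kinase of that complex, fell 1.32-fold in KO-c19, and its KO-c43 value of 0.09 ± 0.044 missed the threshold (limma adjusted p = 0.0961). That value passed after scaling by totals (0.13, limma adjusted p = 0.0155) or quantiles (0.12, 0.0165) and without the trend and robust step (0.0499). Ccnh, its cyclin, was the gene that rose in KO-c43 (log2 change 0.29). Ccna2, for cyclin A2, fell by 0.08 in KO-c19 (limma adjusted p = 0.0445) and by 0.20 in KO-c43. Both were named after their values were seen.

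The remaining CDK inhibitors with values were the INK4 genes Cdkn2c and Cdkn2d, for p18 and p19, and both rose in both lines. Such rises were common over the whole set of tested genes (KO-c19 32.8%, KO-c43 32.5%). A list of 2 genes cannot show how CDK inhibitors moved as a group. Cdkn2d had means of 715 (KO-c19), 653 (KO-c43) and 444 (WT) normalized counts and rose 1.61-fold (KO-c19) and 1.47-fold (KO-c43), at limma adjusted p = 3.44e-08 and 5.6e-07. Cdkn2c had 5306 (KO-c19), 4873 (KO-c43) and 4087 (WT) and rose 1.30-fold (KO-c19) and 1.19-fold (KO-c43), at limma adjusted p = 1.34e-06 and 0.000131. Cdkn1c was not analysed here. Near Cdkn2a and Cdkn2b on chromosome 4, Mtap, for a methionine salvage enzyme, had means of 25530.0 (KO-c19), 29832 (KO-c43) and 29412 (WT) and fell 1.15-fold in KO-c19, while its KO-c43 value of 0.02 missed the threshold (limma adjusted p = 0.619). After quantile scaling the Mtap values were −0.06 in KO-c19, no longer called (limma adjusted p = 0.179), and 0.13 in KO-c43, called (0.00332). Klhl9, for an adaptor of a ubiquitin ligase, had 7098 (KO-c19), 7298 (KO-c43) and 7309 (WT) and passed in neither line (limma adjusted p = 0.352 and 0.97), though it passed as lower in KO-c19 without KO-c19 replicate 1 (log2 change −0.08, 0.0314).

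Of 12 further pocket protein, E2F and DP genes, 7 rose and 3 fell in each line, with median log2 changes of 0.16 and 0.22. Shares over all genes were 32.8% higher and 34.9% lower in KO-c19, and 32.5% and 33.1% in KO-c43. Tfdp2, for a DNA-binding partner of E2F, had means of 2525 (KO-c19), 2388 (KO-c43) and 1161 (WT) normalized counts and rose 2.18-fold (KO-c19) and 2.06-fold (KO-c43), at limma adjusted p = 2.59e-13 and 7.65e-13, while its paralogue Tfdp1 had 8529 (KO-c19), 8235 (KO-c43) and 11520.0 (WT) and fell 1.35-fold (KO-c19) and 1.40-fold (KO-c43). E2f8, a repressor of the family, rose 1.56-fold (KO-c19) and 1.83-fold (KO-c43), and E2f4, which binds mainly with p107 and p130 in resting cells, fell 1.65-fold (KO-c19) and 1.66-fold (KO-c43). Named after their values were seen, Rbl1 (p107) rose 1.14-fold (KO-c19) and 1.13-fold (KO-c43), and Rbl2 (p130), likewise a paralogue of Rb1, rose 1.49-fold (KO-c19) and 1.59-fold (KO-c43). E2f1, named likewise, rose 1.33-fold (KO-c19) and 1.48-fold (KO-c43), and E2f7, also named likewise and the third gene to fall, had log2 changes of −0.54 (KO-c19) and −0.28 (KO-c43). In the list of the MuvB core with Mybl2 and Foxm1, 2 of 6 genes were called in each direction in KO-c19 and 1 in each direction in KO-c43 (medians −0.04 and 0.0015). Mybl2, for a MYB factor that joins MuvB in S phase, fell 1.48-fold (KO-c19) and 1.62-fold (KO-c43), at limma adjusted p = 7.04e-10 and 5.03e-11, and Foxm1, a factor of mitotic genes, rose 1.16-fold (KO-c19) and 1.29-fold (KO-c43). In KO-c19, Lin37 rose 1.26-fold. Lin9 passed there as lower (log2 change −0.16), with libraries that overlapped WT, and the call ended after scaling by totals (−0.06, limma adjusted p = 0.327) or quantiles (−0.08, 0.165) and without KO-c19 replicate 2 (0.0513).

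The genes that E2F is known to drive, most of them of S phase, moved both ways. Their list also held Cdk1 and Ccnb1, which serve mitosis. Ccnb1 fell in KO-c19 (log2 change −0.22) and rose in KO-c43 (0.19), while Cdk1 passed in neither line. KO-c19 had 14 of 29 lower and 6 higher (median log2 change −0.11), and KO-c43 had 11 lower and 10 higher (median −0.06). Over all genes tested, 34.9% were lower and 32.8% higher in KO-c19, and 33.1% and 32.5% in KO-c43. Mcm2, Mcm3 and Mcm5, for 3 subunits of the replicative helicase, fell in both lines. In KO-c19 Mcm2 fell by 1.66-fold, Mcm3 by 1.21-fold and Mcm5 by 1.28-fold. In KO-c43 Mcm2 fell by 1.28-fold, Mcm3 by 1.28-fold and Mcm5 by 1.41-fold. The other subunits, named after their values were seen, did not all fall. Mcm4 fell in both lines (log2 change −0.25 in each), and Mcm6 passed in neither. Mcm7 rose 1.16-fold (KO-c19) and 1.15-fold (KO-c43), at limma adjusted p = 0.000283 and 0.000437. The other genes to rise in KO-c19, named likewise, were Pola1, Pole, Tk1, Tyms and Cdc45, and all of these rose in KO-c43 as well. Orc1, for a subunit of the origin recognition complex, had means of 821 (KO-c19), 774 (KO-c43) and 1188 (WT) and fell 1.45-fold (KO-c19) and 1.53-fold (KO-c43), at limma adjusted p = 8.9e-08 and 1.3e-08. None of the 29 changed 2-fold in either line, where 15.5% (KO-c19) and 14.5% (KO-c43) of all genes did.

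**Figure D4:**
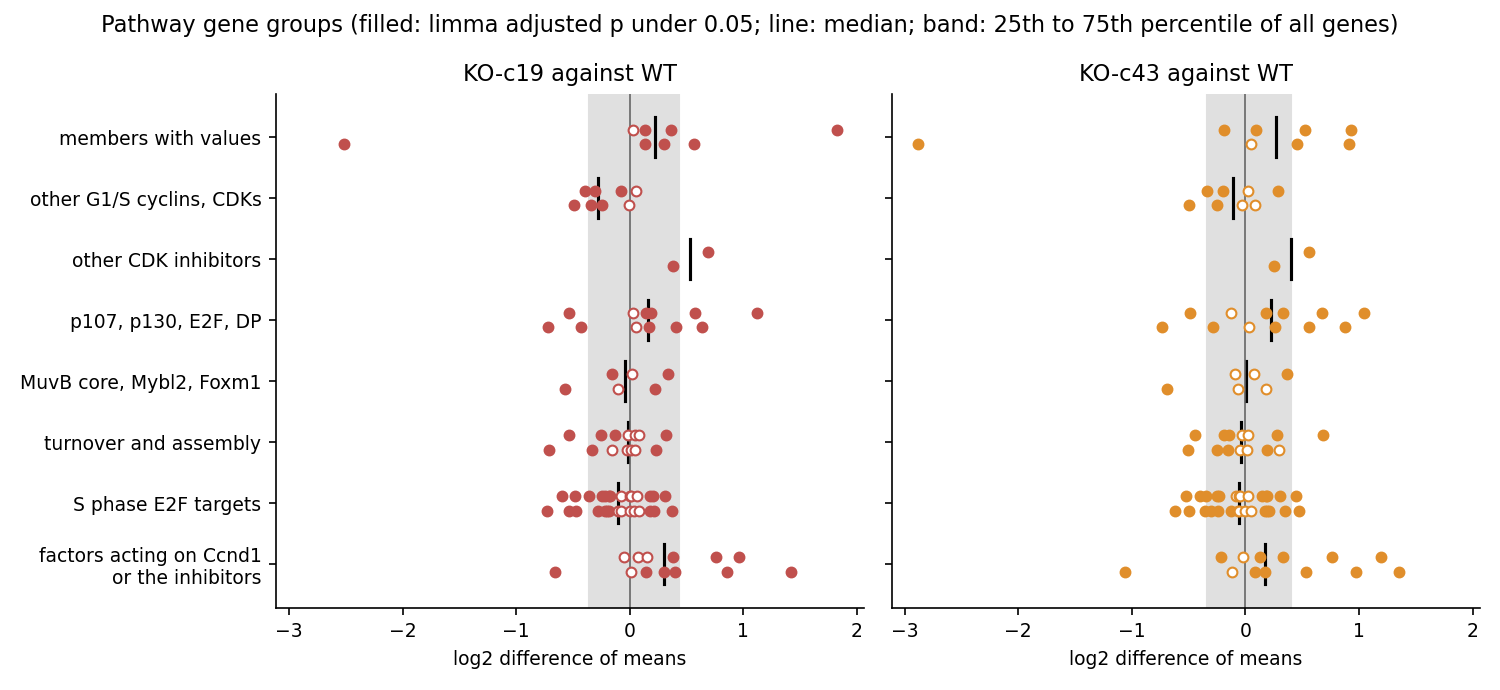
Log2 differences of each line from WT in the 8 genes and in 7 lists of pathway genes; filled points passed a limma adjusted p under 0.05, the black line is the list's median and the grey band holds the 25th to 75th percentile of all genes tested. Both further CDK inhibitors lie right of 0, and the S phase targets spread to both sides of 0.

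Among 14 genes for turnover and assembly of D cyclins and inhibitors, KO-c19 had 5 lower and 2 higher, and KO-c43 had 6 lower and 3 higher (medians −0.02 and −0.04). The shares of all genes were 34.9% lower and 32.8% higher in KO-c19, and 33.1% and 32.5% in KO-c43. Hsp90ab1, for the chaperone that folds CDK4 with its partner, had means of 125249 (KO-c19), 128003 (KO-c43) and 181771 (WT) normalized counts and fell 1.45-fold (KO-c19) and 1.42-fold (KO-c43), at limma adjusted p = 4.33e-10 and 1.07e-09. Ddb1, for a ubiquitin ligase adaptor that serves in p21 and p27 turnover, fell 1.64-fold (KO-c19) and 1.14-fold (KO-c43). Cks1b, the cofactor of SKP2 in p27 degradation, rose 1.17-fold (KO-c19) and 1.21-fold (KO-c43), and Fbxo4, for an F-box protein linked to cyclin D1 turnover, rose 1.25-fold (KO-c19) and 1.61-fold (KO-c43). Skp2 itself, named after its values were seen, went down in KO-c19 (log2 change −0.13) and up in KO-c43 (0.19), both called (limma adjusted p = 0.00518 and 0.000199). The other calls, named likewise, were falls of Psmd10 (−0.33 in KO-c19, −0.25 in KO-c43), Cul4a (−0.25) in KO-c19, and Ambra1 (−0.45), Fbxw7 (−0.15) and Fbxo31 (−0.16) in KO-c43.

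Of 13 tested factors known to act on Ccnd1 or on the inhibitor genes, KO-c19 had 8 higher and 1 lower, and KO-c43 had 9 higher and 2 lower (medians 0.30 and 0.17). All genes tested gave 32.8% higher and 34.9% lower in KO-c19, and 32.5% and 33.1% in KO-c43. Myc, which drives growth and represses Cdkn1a, had means of 17630 (KO-c19), 13311 (KO-c43) and 27784 (WT) normalized counts and fell 1.58-fold (KO-c19) and 2.09-fold (KO-c43), at limma adjusted p = 1.54e-10 and 2.11e-13. Smad3, a mediator of TGF-beta, had 12907 (KO-c19), 11069 (KO-c43) and 4834 (WT) and rose 2.67-fold (KO-c19) and 2.29-fold (KO-c43), at limma adjusted p = 4.04e-15 and 4.16e-14. Jun and Fosl1, AP-1 factors that act on the Ccnd1 promoter, rose as well: Jun by 1.81-fold and Fosl1 by 1.69-fold in KO-c19, Jun by 1.97-fold and Fosl1 by 2.54-fold in KO-c43. Foxo1, named after its values were seen, was called in opposite directions, with log2 changes of 0.30 in KO-c19 (limma adjusted p = 0.00037) and −0.22 in KO-c43 (limma adjusted p = 0.00521), and KO-c43 differed from KO-c19 by −0.51 (limma adjusted p = 2.47e-06). Trp53, whose product can drive Cdkn1a where it is functional, was named after its values were seen. Its means were 2066 (KO-c19), 2044 (KO-c43) and 1868 (WT). It rose 1.11-fold (KO-c19) and 1.09-fold (KO-c43), at limma adjusted p = 0.00925 and 0.0179. Whether these cells hold functional p53 was not tested.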

How the data were processed

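Per the submitters' processing notes, reads were handled with cutadapt, STAR and Partek against mm10. Neither tool versions nor the counting step or its annotation is named there. The values, as deposited, are a signal: gene counts scaled per library by the authors. Of values up to 20 reads on the estimated scale, 83.7% to 84.6% per library came within 0.1 of a whole read. Whole reads were thus not recovered, count tests were not used, and a count-based interval is not given. Coordinates are as deposited, with the stop equal to the start plus the length; none of 8 members had its GRCm38 start (GENCODE M21) and all 8 had its length. 

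Values were taken as log2(value + 1), a scale that understates the change of low genes. A gene with 10 or more in 3 or more libraries entered a single limma fit of 3 group means, with intensity trend and robust empirical Bayes, two-sided, adjusted over all genes (R 4.3.3 with limma 3.58.1, and Python 3.11.15 with pandas 2.3.3). The residual SD had a median of 0.0916 (log2). The members and lists were chosen with earlier results of these data known. All members were described; of each other list the rule named at most 4 genes, those with the smallest summed rank of adjusted p over both comparisons with WT, and the closest profile of each member was taken among protein-coding genes of no list with a mean of at least 50, passing over predicted gene symbols. Other genes of the lists that the text names, among them the markers Krt8, Krt18 and Ptprc, were chosen after their values were seen. Alternatives were pseudocounts, filters, scalings, empirical Bayes settings, the groups or genes fitted, the replicate block, each library left out, and the transcript length. Protein and phosphorylation were not analysed here.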

Additional observations from a re-analysis of the deposited data

Results flagged for a closer look

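These genes differed between the knockout lines in the limma test of KO-c43 against KO-c19 itself (adjusted p under 0.05), given as log2 differences, positive where KO-c43 was higher. Among the members, Ccnd1 (0.22) and Rb1 (0.37) were higher in KO-c43, and Ccnd2 (−0.37), Cdk6 (−0.32) and Cdkn1a (−0.91) were lower; Cdk6 lay on opposite sides of WT in the lines, and Cdkn1a rose in both.

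Among other genes of the pathway, Cdk7 (0.48), E2f8 (0.24), Foxm1 (0.15), Ddb1 (0.52), Fbxo4 (0.36), Mcm2 (0.37), Mtap (0.22), Jun (0.12) and Fosl1 (0.59) were higher in KO-c43, and Cdkn2c (−0.12), Mybl2 (−0.12), Mcm5 (−0.14), Smad3 (−0.22) and Myc (−0.40) were lower. Among cell type markers, Krt14 (−0.54), Cdh1 (−0.63), Epcam (−2.96), Krt19 (−0.48), Pdgfra (−0.95), Cd68 (−0.53) and Pecam1 (−2.005) were lower in KO-c43. The Pecam1 value rests on means of only 2.25 (KO-c43) and 12.4 (KO-c19) normalized counts, near the filter of 10. Some of these calls ended under other settings, of 20 run for each gene but Pecam1, which had values under 15. Cdkn2c lost its call under 10, among them the replicate block (limma adjusted p = 0.0651), TMM scaling (0.0552) and no trend or robust step (0.141). Jun lost it under 6, among them total scaling (0.219), quantile scaling (0.157), the fit of only the 2 groups (0.0543) and leaving out KO-c43 replicate 2 (0.149). Mybl2 lost it under 4 (0.0637 to 0.101), and Foxm1 under total (0.0596) and quantile scaling (0.113). Krt14, with means of 15.1 in KO-c43 and 22.2 in KO-c19, lost it in the fit of only the 2 groups (0.116). Groups of 3 libraries were too small for a search for outlying libraries.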

How the results depend on the processing

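Among the members, the directions of change against WT were kept under every alternative run, and Ccnd1, Ccnd2, Cdk6, Cdkn1a, Cdkn1b and Rb1 kept their calls in both lines; the exceptions, Ccnd3 in KO-c19, Cdk4 in both lines and the line differences of Ccnd3 and Cdkn1b, are given with those genes, and the cause was not tested. Counts of calls among members and among all genes stayed within 1.5 times, while 62 of 1440 recomputed counts, all of other lists, moved by more. The replicate number did not pair the libraries: same-numbered libraries of different groups had residual correlations between −0.0914 and 0.0754, and the labels name no shared batch. With the replicate block, calls over all genes were 5709 higher and 6065 lower for KO-c19 over WT, 5663 and 5792 for KO-c43 over WT, and 3680 and 3119 for KO-c43 over KO-c19; among members only the Cdk4 call in KO-c43 ended (limma adjusted p = 0.0518). Scaling by totals moved the median of all genes by 0.098 in KO-c19 and by 0.045 in KO-c43.

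With the longest transcript in place of merged exons, the Ccnd1 share of D cyclins was 94.99%, 96.1% and 89.2% in KO-c19, KO-c43 and WT, the Cdk4 share of the kinases 89.2%, 91.6% and 89.9%, and the Cdkn1a share of the CIP/KIP pair 36.6%, 22.4% and 17.3%. Summed levels were then 133% of WT for D cyclins in KO-c43, and 168% and 146% for the CIP/KIP pair in KO-c19 and KO-c43. Leaving out each library in turn gave 150.7% to 156.5% for that pair in KO-c19 and 139.9% to 145.3% in KO-c43.

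Signs turned only for uncalled changes of genes outside the members. Klhl9 became 0.0551 in KO-c19 and 0.0437 in KO-c43 with totals, and 0.0414 and 0.0334 with quantile scaling. Over the libraries left out in turn, the KO-c43 value ran from −0.0191 to 0.0217 for Klhl9 (0.00551 without KO-c43 replicate 2), from −0.0041 to 0.0330 for Mtap and from −0.0396 to 0.185 for Cd68. Rb1 rests on the fewest counts of the members and has the widest standard error.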
